A study of Homo sapiens with 6 samples.

Results

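The 8 genes described here encode the subunits of condensin I and condensin II in human cells. They were taken by gene symbol from the annotation of the array platform, keeping rows of the deposited table with exactly 1 symbol. All 8 were found, each with 1 row, among 22375 genes with a symbol of their own. The samples were 3 arrays of cells given 500 nM PD 0332991 in DMSO and 3 arrays of cells given DMSO alone, each after 14 days. All 6 arrays held total RNA of H1299, a line from a human non-small cell lung carcinoma that lacks p53 protein, grown in serum-containing RPMI medium. PD 0332991 (palbociclib) inhibits CDK4 and CDK6, the kinases that phosphorylate the retinoblastoma protein pRB, and the study's title presents the treatment as a way to reactivate pRB. The question for these genes is whether their transcripts differ between cells under the drug and cells in the vehicle.

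Condensins are ring-shaped ATPases that extrude loops of DNA and so compact chromosomes for mitosis. Both complexes share the ATPase pair SMC2 and SMC4, whose heads are bridged by a kleisin protein that carries a pair of HEAT-repeat subunits. Condensin I has the kleisin NCAPH with NCAPD2 and NCAPG, lies in the cytoplasm during interphase and reaches chromosomes after the nuclear envelope breaks down. Condensin II has the kleisin NCAPH2 with NCAPD3 and NCAPG2, is nuclear throughout the cell cycle and starts condensation in prophase. Many genes of mitosis are repressed in resting cells by pRB and its relatives together with E2F factors and the MuvB core, which bind elements in their promoters.

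Values are given on the scale on which the authors deposited them, taken as log2 from the range of the values. The medians of the 6 arrays lay between 4.85 and 4.98, and values ran to 19.9, above the 16 that a 16-bit scanner allows on a plain log2 scale, so a change is a difference on this scale and does not convert safely to a fold of RNA. Pearson's r across rows, which are not independent replicates, was 0.993 to 0.995 between arrays of a group and 0.969 to 0.973 between groups. Of the 4 markers fixed for the cells, the keratin gene KRT8 was called higher, at 14.83 in PD 0332991 and 14.03 in DMSO (limma adjusted p = 9.1e-05), and the mesenchymal filament gene VIM was called lower, at 15.10 in PD 0332991 and 15.67 in DMSO (adjusted p = 0.000296). KRT18, at 14.02 in PD 0332991 and 14.06 in DMSO, was not called, nor was KRT19, which lay at 4.54 in PD 0332991 and 4.62 in DMSO, below every array median. Group means lay between 3.53 and 5.14 for the measured markers of differentiated lung (4 of 5 listed), of neuroendocrine cells (2 of 4) and of blood, endothelium and fibroblasts (7 of 8), of which 1 was called, PECAM1, at 3.93 in PD 0332991 and 3.53 in DMSO. RB1, the gene of pRB, had 12.41 in PD 0332991 and 12.32 in DMSO, with overlapping groups (limma adjusted p = 0.457). Of the other genes fixed for the drug's pathway, CDK4 was called lower, with a log2 change of -0.40 (adjusted p = 0.00279). CDK6, with a change of 0.42 (adjusted p = 0.0429), and CCND1, with 0.66 (adjusted p = 0.00246), were called higher. Nothing in the labels says whether replicate arrays came from separate cultures, so the p-values may reflect technical spread alone.

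All 8 condensin genes fell under PD 0332991, with log2 changes from -6.49 in NCAPG to -0.64 in NCAPH2 and a median of -3.06. Over all genes the median change was 0.00, 38.1% of genes were called in either direction with 18.5% lower and 19.6% higher, at a limma adjusted p under 0.05. In each of the 8 genes every PD 0332991 array lay below every DMSO array, as did the arrays of 22.9% of all genes. When a change larger than 1 was asked for (limma's treat), 7 of the 8 were called lower, all but NCAPH2, against 3.16% of all genes. In these bulk samples fewer dividing cells and less RNA per cell cannot be told apart. MKI67, which encodes the Ki-67 protein of proliferating cells, had 6.75 ± 0.03 in PD 0332991 and 14.17 ± 0.24 in DMSO (SD, n = 3 each), and its part in the result for condensin was not tested.

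**Figure D1:**
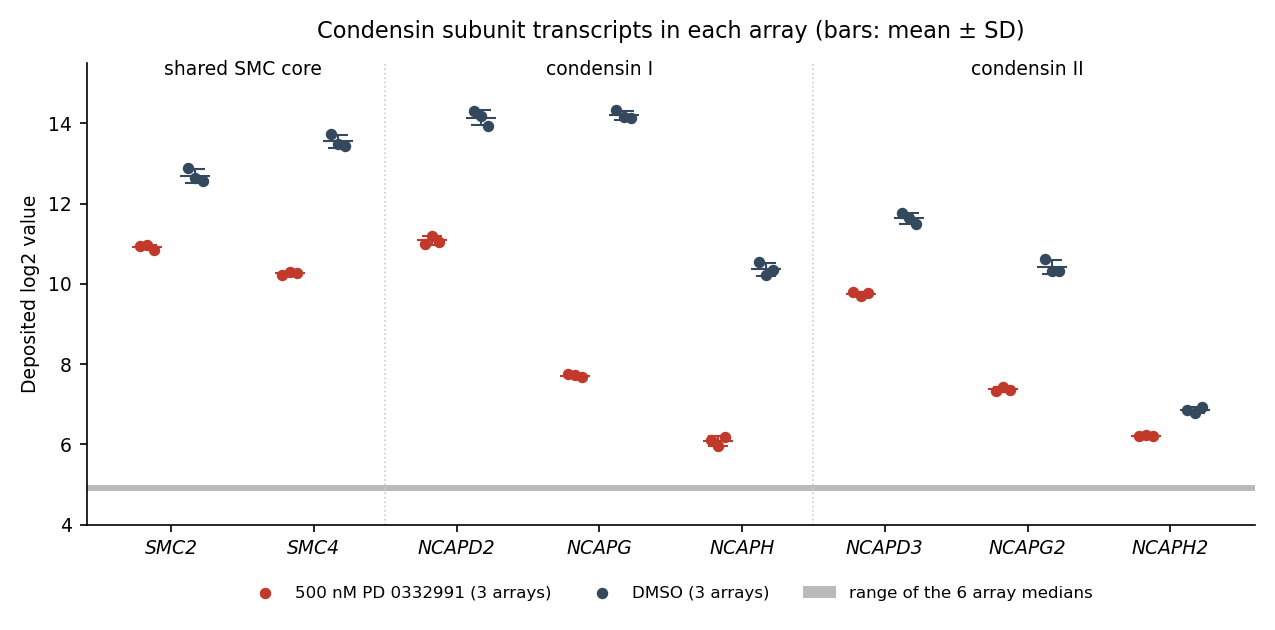
Deposited log2 values of the 8 condensin genes (vertical axis) in the 3 PD 0332991 arrays (red, left of each pair) and the 3 DMSO arrays (dark blue), with the mean and SD as bars and the range of the 6 array medians as a grey band. The groups are separate for every gene, most widely for NCAPG with a gap of 6.38 and least for NCAPH2 with a gap of 0.54, and levels of different genes on this axis are not comparable because their probes differ.

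The shared ATPase subunits fell by unequal amounts. SMC4 had 10.23, 10.30 and 10.28 in the PD 0332991 arrays, against 13.74, 13.48 and 13.44 in the DMSO arrays. The lowest DMSO array lay 3.14 above the highest PD 0332991 array, and the change was -3.28 ± 0.09 (limma adjusted p = 1.11e-07, SE, n = 3 per group). SMC2, its partner in the heterodimer, had 10.93, 10.97 and 10.85 in PD 0332991, against 12.88, 12.64 and 12.56 in DMSO. These groups were also apart, by 1.59, and SMC2 fell by 1.77 ± 0.10 (adjusted p = 2.88e-06). Within an array, the log2 difference SMC4 minus SMC2 was shifted by -1.56, -1.53 and -1.44 in the PD 0332991 arrays relative to its DMSO mean, while the DMSO arrays lay within 0.03 of that mean. The shift of -1.51 ± 0.04 (SE, n = 3 per group) was larger than the spread of either group, and its exact permutation p was 0.10 (two-sided), the smallest that 3 against 3 arrays can give.

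The condensin I subunits included the deepest falls of the 8 genes. NCAPG, a HEAT-repeat subunit, had 7.75, 7.73 and 7.67 in the PD 0332991 arrays, against 14.33, 14.15 and 14.13 in the DMSO arrays. The arrays of each group stood close together, and the change of -6.49 ± 0.08 (limma adjusted p = 5.58e-09, SE, n = 3 per group) ranked 5 from the deepest fall among the 22375 genes. NCAPH, the kleisin that closes the condensin I ring, had 6.12, 5.95 and 6.19 in PD 0332991, against 10.54, 10.22 and 10.36 in DMSO. It fell by 4.28 ± 0.10 (adjusted p = 6.13e-08), rank 49. Without detection values, whether its PD 0332991 level exceeds background is unknown, which leaves the size of the fall in NCAPH uncertain. NCAPD2, the other HEAT-repeat subunit, had 11.00, 11.20 and 11.06 in PD 0332991, against 14.31, 14.18 and 13.94 in DMSO. It fell by 3.06 ± 0.11 (adjusted p = 3.46e-07), rank 151.

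**Figure D2:**
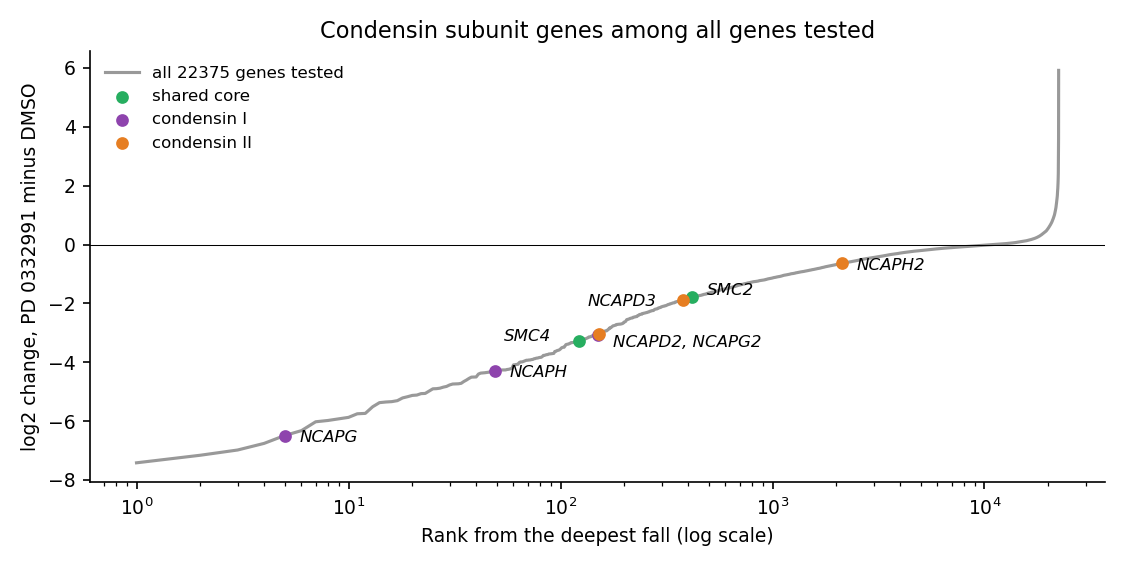
Log2 change (PD 0332991 minus DMSO, vertical axis) of all 22375 genes ordered from the deepest fall (horizontal axis, log scale), with the condensin genes marked by complex. Of the 8, NCAPG stands at rank 5 and NCAPH2 at rank 2116, and the others lie between ranks 49 and 419.

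The promoters of these genes were searched for elements known from genes of mitosis after the values were seen, and any part of such elements in the falls was not tested. The promoter set used here (RefSeq, GRCh38.p14) gave 10 windows for 7 of the 8 genes. Each window ran from 250 bases before to 50 bases after a transcript start. The set held none for NCAPH2, the gene with the smallest fall, so the promoter of NCAPH2 was not examined. Each stretch printed here runs from 150 bases before the start to the base before it, 5′ to 3′ on the gene's strand, which is the plus strand for all 4. NCAPG and NCAPH, the genes with the deepest falls, are shown at chr4:17810829-17810978 and chr2:96335616-96335765, NCAPD2 at chr12:6493952-6494101 and SMC4 (the first of its pair of starts) at chr3:160399500-160399649. Capitals mark, on either strand, the cell cycle genes homology region CHR (TTTGAA or TTCGAA), an E2F core (TTCCCGC or TTGGCGC or TTCGCGC or TTGCCGC) and the CCAAT box. None of the marked matches overlap.
NCAPG: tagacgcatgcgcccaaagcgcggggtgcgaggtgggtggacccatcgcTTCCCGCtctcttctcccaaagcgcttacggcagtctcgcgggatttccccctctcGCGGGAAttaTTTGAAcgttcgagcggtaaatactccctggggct
NCAPH: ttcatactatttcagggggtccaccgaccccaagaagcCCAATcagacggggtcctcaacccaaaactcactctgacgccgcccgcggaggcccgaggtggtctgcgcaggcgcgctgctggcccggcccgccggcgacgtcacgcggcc
NCAPD2: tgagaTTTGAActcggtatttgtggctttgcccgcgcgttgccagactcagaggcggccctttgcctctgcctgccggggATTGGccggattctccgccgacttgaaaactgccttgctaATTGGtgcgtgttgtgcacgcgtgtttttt
SMC4: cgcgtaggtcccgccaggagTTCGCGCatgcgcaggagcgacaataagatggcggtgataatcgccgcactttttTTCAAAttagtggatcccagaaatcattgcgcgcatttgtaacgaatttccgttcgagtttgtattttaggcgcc

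The CHR letters stood in 6 of the 10 condensin windows, against 16.4% of the 35116 promoter windows of the same length. SMC2, SMC4 and NCAPD3 each gave a second window, so the windows are not independent, and the difference was not tested. NCAPG held TTTGAA from -35 to -30, counted from the transcript start, next to TTCCCGC on the opposite strand from -45 to -39 and with a second TTCCCGC from -101 to -95. NCAPD2 held TTTGAA from -145 to -140, with CCAAT boxes on the opposite strand both nearer the start and further from it. SMC4 held TTTGAA on the opposite strand from -75 to -70, in the stretch that reads TTCAAA, and TTCGCGC from -130 to -124. In SMC2, at the first of its starts, TTTGAA on the opposite strand spanned the start itself. In NCAPD3, at the second of its starts, TTTGAA on the gene's strand spanned the start, and in NCAPG2 it lay from 36 to 41 after the start. The same NCAPD3 window held, on the opposite strand, TTCCCGC from -249 to -243 and CCAAT boxes from -110 to -106 and from -45 to -41. NCAPH, the gene with the second deepest fall of the 8, held a CCAAT box from -112 to -108 and none of the CHR or E2F letters in this window. The E2F cores stood in 3 of the 10 windows against 13.0% of all, and CCAAT in 3 of the 10 against 34.6% of all. Among 26 windows of the partners and regulators described further on, 42.3% held CHR, 23.1% an E2F core and 69.2% CCAAT. Among 23 windows of other SMC complexes, 8.7% held CHR, 56.5% an E2F core and 43.5% CCAAT, so the E2F letters were more frequent there than in the condensin windows and CHR less frequent, differences that were not tested. A match of letters does not show that a factor binds there.

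The condensin II subunits had smaller falls than their condensin I counterparts. NCAPG2, the counterpart of NCAPG, had 7.33, 7.43 and 7.35 in the PD 0332991 arrays, against 10.61, 10.32 and 10.33 in the DMSO arrays. It fell by 3.05 ± 0.09 (SE, n = 3 per group, limma adjusted p = 1.95e-07), rank 152, the deepest change of this complex's own subunits. NCAPD3, the counterpart of NCAPD2, had 9.79, 9.71 and 9.78 in PD 0332991, against 11.76, 11.64 and 11.50 in DMSO. Its groups were 1.70 apart and it fell by 1.88 ± 0.08 (adjusted p = 1.10e-06). NCAPH2, the condensin II kleisin, had 6.21, 6.24 and 6.20 in PD 0332991, against 6.86, 6.78 and 6.94 in DMSO. It fell by 0.64 ± 0.07 (adjusted p = 0.000132), with no overlap of the groups, but was not called for a change larger than 1 (treat adjusted p = 1). Whether its levels exceed background is likewise unknown, which leaves the size of its change uncertain.

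The 3 condensin I and condensin II counterparts were compared within each array, which takes out what the arrays share. NCAPG minus NCAPG2 was shifted by -3.36, -3.48 and -3.46 in the PD 0332991 arrays relative to its DMSO mean, a shift of -3.44 ± 0.05 (SE, n = 3 per group). NCAPH minus NCAPH2 was shifted by -3.60, -3.80 and -3.52, a shift of -3.64 ± 0.12, to which the limit on the PD 0332991 levels of NCAPH and on NCAPH2 applies. NCAPD2 minus NCAPD3 was shifted by -1.30, -1.02 and -1.23, a shift of -1.18 ± 0.09. In the DMSO arrays the same 3 differences stayed within 0.16 of their means, so on the deposited scale the condensin I gene fell further than its counterpart in every PD 0332991 array. NCAPH2 had 6.86 in DMSO, where NCAPH had 10.37 and the array medians lay between 4.85 and 4.98. Whether this low starting level limited how far NCAPH2 could fall, and so set the direction of its pair, was not tested. Each shift, like that of SMC4 minus SMC2, had an exact permutation p of 0.10 (two-sided, n = 3 per group, 0.10 after adjustment over the 4 pairs), the smallest possible. The mean of the 3 condensin I genes minus the mean of the 3 condensin II genes was shifted by -2.75, -2.77 and -2.74 in the PD 0332991 arrays. The limit on NCAPH and NCAPH2 and the low starting level of NCAPH2 apply to this shift as well.

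**Figure D3:**
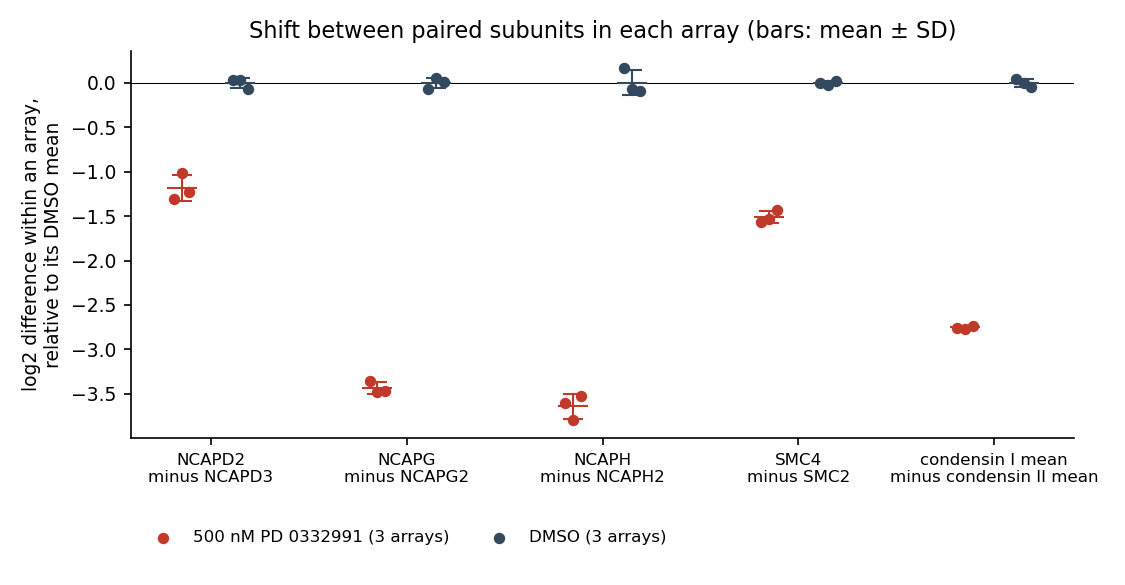
Log2 difference between paired subunits within each array, set relative to its mean over the DMSO arrays (vertical axis), for the 3 PD 0332991 arrays (red, left) and the 3 DMSO arrays (dark blue), with the mean and SD as bars. The PD 0332991 arrays lie below 0 for all 4 pairs and for the mean of the complexes, from -1.18 on average for NCAPD2 minus NCAPD3 to -3.64 for NCAPH minus NCAPH2.

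Ordered by the size of the fall, the genes ran NCAPG, NCAPH, SMC4, NCAPD2, NCAPG2, NCAPD3, SMC2 and NCAPH2. NCAPD2 and NCAPG2 differed in change by -0.01 ± 0.08 (SE, n = 3 per group), with differences from -0.19 to 0.16 over the 9 pairs of a PD 0332991 and a DMSO array. NCAPD3 and SMC2 differed by -0.10 ± 0.06, with differences from -0.27 to 0.04, so neither of these neighbours could be ordered. SMC4 and NCAPD2 differed by -0.22 ± 0.07, in the same direction in all 9 pairs of arrays. The other 4 neighbours in the order differed beyond the spread of the arrays, most in NCAPG and NCAPH at -2.20 ± 0.10. Where NCAPH or NCAPH2 is one of the neighbours, the size of the difference is uncertain, because their low levels may be background. None of the 7 comparisons can pass a threshold of 0.05 (exact permutation, two-sided, adjusted p of 0.14 for the 5 neighbours whose arrays did not overlap, 0.233 for NCAPD3 and SMC2, and 1 for NCAPD2 and NCAPG2). In DMSO array 1 all 8 genes lay above their DMSO mean, against 2 and 1 of the 8 in the other DMSO arrays. Without that array all 8 genes were still called lower.

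Outside the complexes, the genes whose centred values over the 6 arrays lay nearest to the condensin I mean were RRM2, ANLN and PBK, at Euclidean distances of 0.16 to 0.17. RRM2 encodes the small subunit of ribonucleotide reductase, ANLN the actin-binding protein anillin of the cleavage furrow and PBK a mitotic kinase, and their log2 changes were -4.60, -4.50 and -4.50. Nearest to the condensin II mean were WDR5, a subunit of histone methyltransferase complexes, the deubiquitinase gene OTUD6B and the centriole gene SASS6, at distances of 0.06 to 0.08, with log2 changes of -1.81, -1.85 and -1.87. With 6 arrays in 2 groups this likeness measures mainly an equal difference between the groups.

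Proteins that load, modify or work beside condensin mostly fell at the transcript level as well. Of 23 listed partners and regulators 19 were measured, of which 14 were lower, 4 higher and 1 not called, with a median log2 change of -3.61. Over all genes 18.5% were lower and 19.6% higher, so the count of higher partners lay near the share over all genes. The list was chosen with earlier results of these data known and holds many genes of mitosis. Its count of lower genes is therefore no independent support for the result in condensin. CDK1, the kinase of mitotic entry, had 6.28, 6.22 and 6.35 in PD 0332991, against 12.24, 11.98 and 11.87 in DMSO, and fell by 5.75 ± 0.10 (SE, n = 3 per group, limma adjusted p = 2.07e-08). Whether its PD 0332991 level exceeds background is also unknown, so the size of this fall is uncertain too. PLK1, a polo-like kinase of mitosis, had 7.67, 7.68 and 7.87 in PD 0332991, against 14.18, 14.02 and 13.98 in DMSO, and fell by 6.32 ± 0.09 (adjusted p = 8.94e-09). MKI67, with a change of -7.42, had the deepest fall of the 19 and of all genes tested. KIF4A, a chromosome-bound kinesin that interacts with condensin I, fell by 3.95 ± 0.09, and TOP2A, the topoisomerase that works with condensin on the chromosome axis, fell by 5.37 ± 0.11. No groups overlapped in these 5 genes. MCPH1, an inhibitor of condensin II, had no row with a symbol of its own and was not analysed here.

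The called partners that were higher in PD 0332991 moved by less than 1. BTRC, a substrate receptor of the ubiquitin ligase SCF, had 9.35, 9.48 and 9.26 in PD 0332991, against 8.52, 8.39 and 8.40 in DMSO, and rose by 0.92 ± 0.08 (SE, n = 3 per group, limma adjusted p = 4.31e-05). PPP2R1A, the scaffold of the phosphatase PP2A, rose by 0.39 ± 0.08, and CSNK2A2, a catalytic subunit of casein kinase II, rose by 0.36 ± 0.08. PHF8, a histone demethylase, rose by 0.24 ± 0.07 (adjusted p = 0.0255). The PHF8 call was lost without PD 0332991 array 1, 2 or 3 or DMSO array 2 or 3 (adjusted p between 0.0513 and 0.0842), after centring the arrays on their medians (0.12), with replicate number as a block (0.0771), when every row of the table was tested (0.107) and for a minimum change of 1 (treat adjusted p = 1).

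Genes of the other SMC complexes, which are built on a related plan around SMC proteins, went in both directions. Of 22 listed genes of cohesin, of the SMC5 and SMC6 complex and SMCHD1, 20 were measured, of which 7 were lower, 2 higher and 11 not called, against 18.5% lower, 19.6% higher and 38.1% called in either direction over all genes. The 7 lower and 2 higher together are near that last share of the 20. Taken apart, the share of lower genes was above that over all genes and the share of higher genes below it. Of 12 measured cohesin genes 4 were lower and 2 higher. Of 7 genes of the SMC5 and SMC6 complex 3 were lower and 0 higher. The median log2 change of the 20 was -0.16, against -3.06 for condensin and 0.00 for all genes. SMC1A, a cohesin ATPase, had 10.94, 10.96 and 10.98 in PD 0332991, against 12.54, 12.36 and 12.16 in DMSO, and fell by 1.40 ± 0.10 (SE, n = 3 per group, limma adjusted p = 1.25e-05), the deepest fall of the 20. STAG3, a cohesin subunit known from meiosis, fell by 1.29 ± 0.13, and NSMCE4A, the kleisin of the SMC5 and SMC6 complex, fell by 1.23 ± 0.07. Both genes of the cohesin loader were higher in PD 0332991, with NIPBL at 0.48 ± 0.10 (adjusted p = 0.00537) and its partner MAU2 at 0.41 ± 0.08 (adjusted p = 0.00308). The difference between condensin and the other complexes as lists was not tested.

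**Figure D4:**
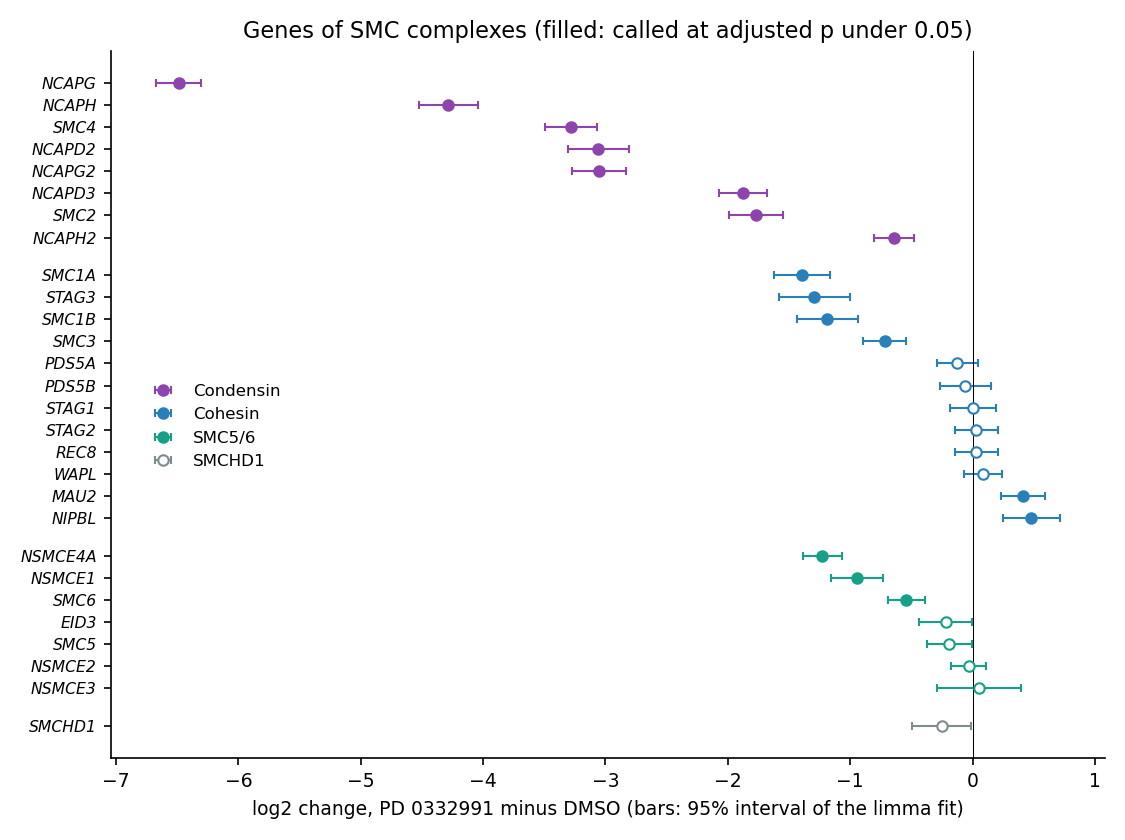
Log2 change (PD 0332991 minus DMSO, horizontal axis) of each measured gene of condensin, cohesin, the SMC5 and SMC6 complex and SMCHD1, with 95% intervals of the limma fit as bars, and filled points for genes called at an adjusted p under 0.05. The condensin genes reach from -6.49 to -0.64, and the other 20 genes from -1.40 to 0.48.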

How the data were processed

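Each of the 6 arrays measured total RNA on an Affymetrix platform with 65535 rows in the deposited table. Early spreadsheet programs cut files at this length below a header, so the table may hold only part of the platform's rows, and the ranks and shares given here refer to the rows it holds. The authors deposited log2 values, made with Affymetrix Expression Console per the submitters' processing notes. The version of that program, its background correction and its normalization method are details not given in the sources used here. A log base of 2 was inferred from a range of 1.87 to 19.9. The labels name both an Affymetrix WT Plus kit and a NuGEN amplification and labelling kit. No detection flags or scan dates were used, so background and scanning batches were not examined, and precision is limited by the number of arrays (median SE 0.0875).

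The platform annotation gave 1 symbol to 22685 rows, several to 1385 and none to 41465. For 296 genes the row with the highest mean stood for the gene, leaving 22375. PD 0332991 minus DMSO was fitted with limma 3.58.1 (lmFit, eBayes; R 4.3.3) without further scaling, with 4 residual degrees of freedom per gene and Benjamini-Hochberg adjustment over all 22375 genes, two-sided. Replicate numbers carry no stated pairing and were not in the model. The fit was tested on simulated data with known changes. Differences between genes used the exact permutation test over arrays.

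The members, lists, named-gene rule and alternatives were chosen with earlier results of these data known; the comparisons of neighbours in the order of falls, the adjoining genes and the promoter motifs were added after the values were seen. The rule named all 8 members, the 3 called genes of each other list with the largest change, called genes against a list's majority, MKI67, RB1, MCPH1, KIF4A and TOP2A, and the 3 nearest profiles. Alternatives were other scaling, filters, a replicate block, variance models, leaving out arrays and a minimum change of 1. Of the 22685 rows, 20487 matched the RefSeq gene table (GRCh38.p14) by gene identifier.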

Additional observations from a re-analysis of the deposited data

How the results depend on the processing

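All 8 condensin genes kept their direction and their call under 16 of the 17 alternatives. The exception was a minimum change of 1, under which NCAPH2 (-0.64) was no longer called (limma treat adjusted p = 1). That setting also gave 1238 called genes in place of 8529, 0 partners and regulators higher in place of 4, and, among other SMC complexes, 1 lower in place of 7 and 0 higher in place of 2, as its stricter threshold implies. The shift of condensin I against condensin II was -2.71 after quantile normalization in place of -2.75, and that of NCAPH minus NCAPH2 was -3.48 without both DMSO array 1 and PD 0332991 array 2 in place of -3.64; the cause was not tested. Leaving out 1 array at a time gave 7483 to 8075 called genes, and all 8 condensin genes were called lower each time. Deviations from the group mean correlated at -0.33, -0.15 and 0.10 between same-numbered arrays and at 0.41 between DMSO array 1 and PD 0332991 array 2. They are centred within groups of 3 arrays, so these values cannot decide whether the numbers mark pairs. With replicate number as a block 7708 genes were called, with all 8 condensin genes among them (largest limma adjusted p 0.00154). Testing every row of the table gave 12192 calls. Signal over background could not be judged without detection values, which limits NCAPH, NCAPH2, CDK1 and any other gene with low values.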

Other observations

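Genes that overlap a condensin gene or lie within 5 kb of one in the RefSeq annotation did not share one direction. Of 19 such neighbours 12 were measured, of which 5 were lower in PD 0332991, 3 higher and 4 not called. Over all genes 18.5% were lower and 19.6% higher. The deepest fall among the neighbours was that of TRIM59, which lies beside SMC4, at -1.45 on the log2 scale. MRPL51, beside NCAPD2, stood at -1.02 and DCAF16, beside NCAPG, at -0.52. These falls went with those of the condensin genes, and the arrays of the groups were separate in each. The 3 higher genes moved less, with JAM3 at 0.60, IFT80 at 0.41 and LMF2 at 0.34. SCARNA10, a small Cajal body RNA that overlaps NCAPD2, had 11.36, 11.55 and 11.25 in PD 0332991, against 10.88, 10.28 and 11.23 in DMSO. Its change of 0.59 ± 0.22 (SE, n = 3 per group) was not called (limma adjusted p = 0.0673), whereas NCAPD2 fell by 3.06 in the same arrays. The change in SCARNA10 was 0.33 without DMSO array 2 (adjusted p = 0.116) and was called without DMSO array 3 (0.81, adjusted p = 0.0122). It was also called after quantile normalization (0.71, adjusted p = 0.0308), without genes below the median level (adjusted p = 0.0337) and with array weights (0.90, adjusted p = 0.00674). The result for SCARNA10 thus depended on the processing as well as on single DMSO arrays. JAM3, a junctional adhesion molecule gene that overlaps NCAPD3 in the annotation, had 10.35, 10.57 and 10.22 in PD 0332991, against 9.90, 9.83 and 9.63 in DMSO, and rose by 0.60 ± 0.11 (adjusted p = 0.00297). MIR15B, a microRNA gene that overlaps SMC4, had 5.05, 4.80 and 4.93 in PD 0332991, against 6.87, 6.53 and 5.30 in DMSO. Its change of -1.30 ± 0.35 (adjusted p = 0.0185) was no longer called without PD 0332991 array 2 or 3 or DMSO array 1 or 2 (adjusted p between 0.051 and 0.061), nor without both DMSO array 1 and PD 0332991 array 2 (0.14), and was -1.77 without DMSO array 3. MIR16-2, beside it, had a change of -0.07 ± 0.31 (adjusted p = 0.907) with overlapping groups. None of SCARNA10, JAM3, MIR15B and MIR16-2 was called for a minimum change of 1 (treat adjusted p = 1). All the neighbours named here were chosen after their values were seen. Whether probes of the overlapping genes also take up RNA of the condensin gene was not tested.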
